A study of Rattus with 9 samples.

Results

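The cell cycle genes described here are a list of 43 rat genes, chosen by symbol, that act in DNA replication or in mitosis. Of these, 41 were measured among 23836 gene symbols, 24 with a role in mitosis and 17 with a role in replication. Ccnb2 and E2f1 were not analysed here.

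A cell that divides first licenses its replication origins and loads the MCM helicase, then copies its DNA with the help of the Pcna clamp and a supply of deoxynucleotides, and later condenses its chromosomes and separates them on a spindle. Transcripts of the replication genes rise as a cell passes from G1 into S phase, and those of the mitosis genes rise later, from S phase to mitosis. The biliary epithelium of a healthy duct is largely quiescent and can re-enter the cycle after injury.

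The samples were single cells of rat bile duct measured by 10x Genomics 3' single-cell RNA sequencing. The sham group held 3 samples, called sham 1, sham 2 and sham 3, with 1 library each. The ctrl group came from rats after liver transplantation with ischemic injury, with 1 sample at each of days 1, 3 and 7. The treat group had the same transplantation and, in addition, the splenic and gastroduodenal arteries tied off to raise arterial flow, again with 1 sample at each of days 1, 3 and 7. The labels give no strain, sex or age for any group, leave it unsaid whether the libraries within a sample are from different animals, and give no day for the sham samples. The test of treat against ctrl therefore sets 3 samples against 3 at matched days. Because each arm and day has 1 sample, all comparisons share an estimate of the spread from all samples, sham included. That estimate draws on differences among the sham samples and on differences between the arms that change with the day. The p-values of every comparison rest on this spread, which may in part be technical.

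After filtering, 139399 cells remained in 20 libraries, with 9216851 to 192942212 unique molecular identifiers (UMIs) in the cells of a sample. Sham 1 was the smallest sample, with 2271 cells, and held no cycling cell, as defined below, among its EC-like, fibroblast-like, LEC-like, T-like and NK-like cells. In ctrl day 3, the limit on hemoglobin transcripts removed 85.6% and 92.0% of the barcodes of libraries 2 and 3. Libraries shared at most 0.943% of the cell barcodes of the smaller one. Cells were grouped without 251 cell cycle genes and named after markers, so that each type is called "-like": biliary epithelial cells (BEC), endothelial cells (EC), lymphatic endothelial cells (LEC), fibroblasts, smooth muscle cells (SMC), macrophages, monocytes, neutrophils, T, natural killer (NK), B and plasma cells. In a finer grouping, a T-like and a fibroblast-like cluster had Mki67 in 78.6% and 91.8% of cells, so the grouping was not free of cycle state. Another 16522 cells (11.85% of all) lay in clusters that were given no type. Each of the 4 BEC-like clusters carried at least 9 of 10 BEC markers. The SMC-like cluster also carried all 7 markers of vascular mural cells, so smooth muscle and other mural cells were not separated. It held 2422 cells, while the SMC-like clusters of the finer grouping held 1704 and 145. Another finer cluster, of 658 cells with Mki67 in 14.1% of them, carried all 10 EC markers and 6 of 7 mural markers. Whether its cells were SMC-like in the main grouping was not examined.

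A cell was placed in the cycling class if at least 2 different mitosis genes other than Hmgb2 were still detected after every cell had been thinned to 1500 UMIs. This share is a score over the listed genes, so it is given as a description in each sample, with an exact Clopper-Pearson 95% interval that covers counting error only. Neutrophil-like cells, which are known to have left the cycle, serve as a comparison level. It was 0.277% to 1.68% in the transplanted samples, and 0.0815% to 1.23% without Tacc3, Aurka and Kif23, the first 2 of which were detected in neutrophil-like cells outside the class. Their median depth was 1233 to 2111.5 UMIs, against 3613 to 8006 UMIs in BEC-like cells of the same samples.

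In BEC-like cells the cycling class was largest on day 1 after transplantation, in both arms. Sham 1, sham 2 and sham 3 had 0.488%, 4.60% and 6.87% of BEC-like cells in the cycling class. On day 1 the share was 21.5% in ctrl (20.2% to 22.8%, 827 of 3845 cells) and 35.5% in treat (33.9% to 37.1%, 1206 of 3400 cells). It was 10.4% and 9.89% on day 3 and 6.92% and 10.8% on day 7, for ctrl and treat. The 2 day 1 samples therefore lay above the 7 others, and the mean share on day 1 was 7.14 times that of sham and 3.22 times that of day 7. Without thinning the shares were 7.14%, 16.9% and 24.6% in sham and 37.9% and 48.4% on day 1, a ratio of 2.66, and that of day 1 to day 7 was 2.12. With a definition by at least 3 replication genes the ratio of day 1 to sham was 2.52, and ctrl day 1 (5.70%) was then below treat day 3 (5.90%). In all, 502 and 981 BEC-like cells of day 1 and 94 to 280 of each sham sample were too shallow to be thinned. Leaving out 1 library at a time, a choice made after seeing the data, gave 16.9% to 24.3% in ctrl day 1 and 33.0% to 39.4% in treat day 1. Later samples moved more, to 19.6% (9 of 46 cells) in ctrl day 3 without library 1, 6.26% in treat day 3 without library 2 and 6.43% in treat day 7 without library 2. The 6 day 1 libraries ranged from 15.1% to 42.5%, and 1 day 7 library of treat reached 17.7%, above the lowest day 1 library.

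**Figure D1:**
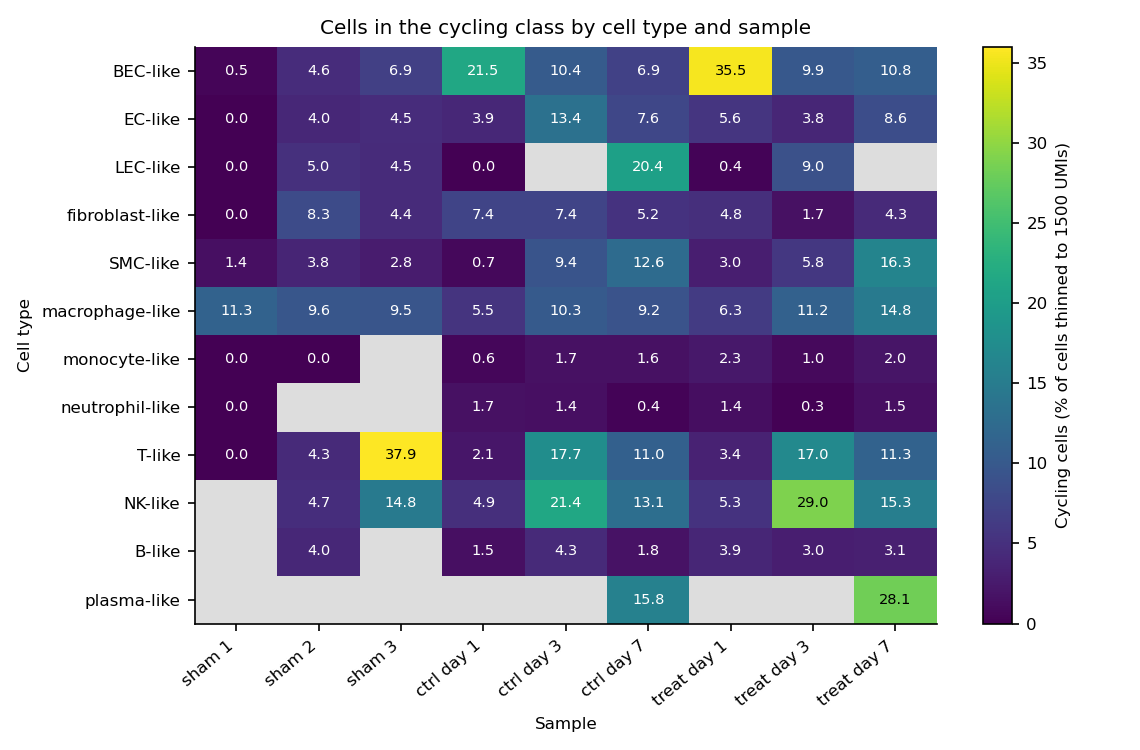
Percent of cells in the cycling class (color and printed value) for 12 cell types (rows) in the 9 samples (columns), with gray squares where fewer than 20 cells reached 1500 UMIs. BEC-like cells are highest on day 1 (21.5% and 35.5%), whereas T-like and NK-like cells of the transplanted samples are highest on day 3.

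BEC-like cells made up 84.5% of all cycling cells in ctrl day 1 and 66.9% in treat day 1, while they were 34.0% and 19.4% of all cells in those samples. In sham 1, sham 2 and sham 3 they were 6.45%, 12.4% and 21.6% of cycling cells and 22.2%, 18.5% and 17.0% of all cells. Fibroblast-like cells were 0%, 50.3% and 43.5% of the cycling cells there and 3.70%, 36.3% and 47.6% of all cells. Macrophage-like cells were 41.9%, 23.6% and 19.7% of the cycling cells and 17.1%, 15.7% and 11.1% of all cells. Sham 1 had 31 cycling cells, and cells in clusters given no type were 48.4% of them.

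In BEC-like cells Mki67, a protein that coats mitotic chromosomes, stood at 4.83, 20.5 and 31.4 CPM in the 3 sham samples, where CPM are UMI counts of a gene scaled so that all genes in the cells of that type and sample sum to the same total. It stood at 60.5, 36.3 and 26.3 CPM in ctrl and at 88.6, 33.3 and 42.4 CPM in treat on days 1, 3 and 7. Birc5, a member of the chromosomal passenger complex, had 3.32, 13.7 and 19.0 CPM in sham, 90.2, 34.9 and 22.5 CPM in ctrl and 109, 29.6 and 27.2 CPM in treat. Both genes were higher in the 2 day 1 samples than in any other sample. Cdc20, an activator of the anaphase-promoting complex, was at 2.72, 14.6 and 23.0 CPM in sham. It was at 101, 32.1 and 24.7 CPM in ctrl and at 109, 21.0 and 29.3 CPM in treat. In all, 23 of 24 mitosis genes were higher in both day 1 samples than in each of the other 7, and the exception was Kif23. Of all 13701 genes tested in these cells, 5.89% stood in that order.

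**Figure D2:**
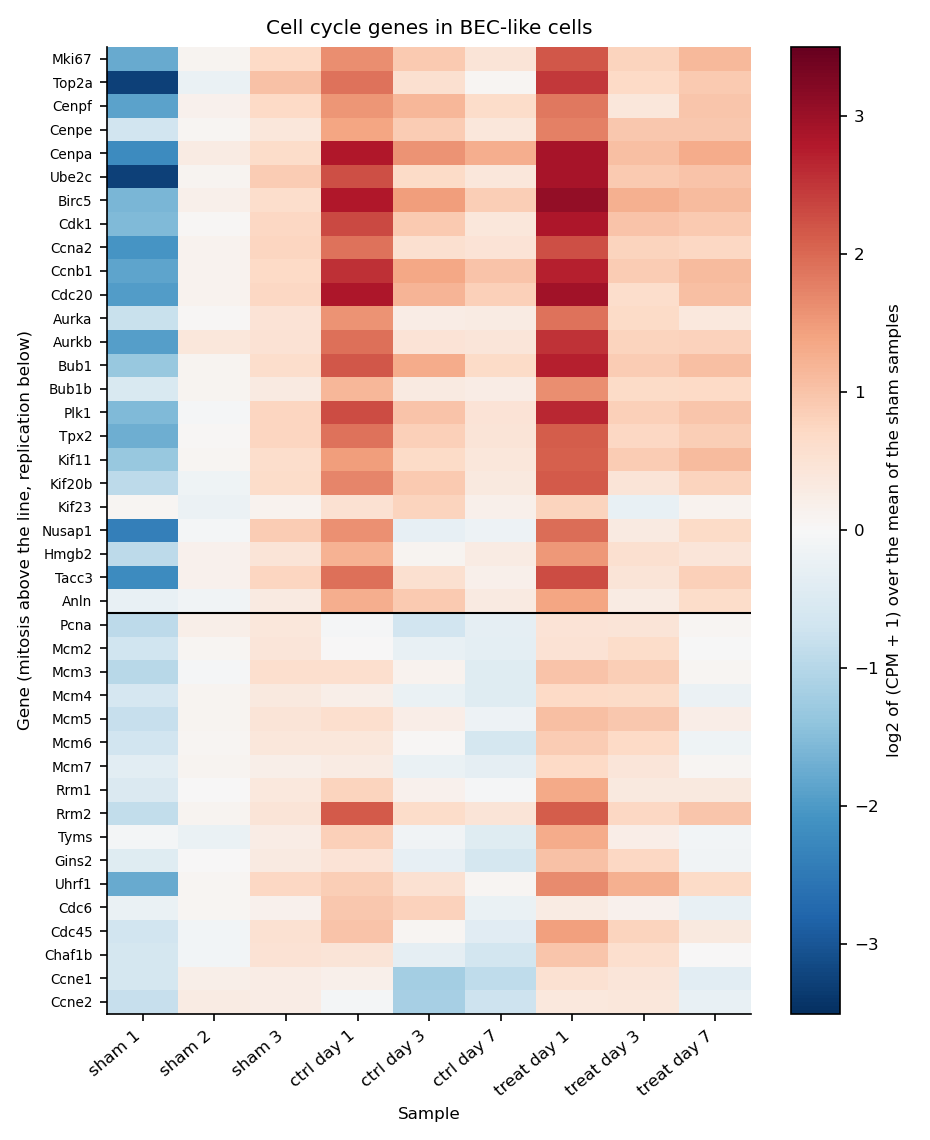
Levels of the 41 genes (rows) in BEC-like cells of the 9 samples (columns), as log2 of CPM + 1 over the mean of the sham samples, with mitosis genes above the black line and replication genes below it. The day 1 columns are red (above the sham mean) for the mitosis genes, Kif23 included, and paler for most replication genes.

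Among replication genes, Rrm2, the small subunit of ribonucleotide reductase, had 0.905, 2.71 and 3.72 CPM in sham and 14.2, 4.40 and 3.75 CPM in ctrl on days 1, 3 and 7. It had 14.0, 4.70 and 5.71 CPM in treat, so that day 1 stood apart. Mcm5, a subunit of the MCM helicase, had 7.85, 15.5 and 20.1 CPM in sham, 22.4, 17.3 and 12.7 CPM in ctrl and 30.9, 28.9 and 17.3 CPM in treat. Its day 1 value in ctrl was below the day 3 value in treat. Pcna, the clamp of the DNA polymerases, overlapped between all groups, at 88.1 to 219 CPM in sham and 105 to 231 CPM after transplantation. Of the 17 replication genes, 4 were higher in both day 1 samples than in each of the other 7, beside the 5.89% of all genes given above. In both day 1 samples 10 of 17 replication genes and 24 of 24 mitosis genes were above all 3 sham samples, beside 11% of all genes.

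A comparison of day 1 with sham in BEC-like cells was added after these shares had been seen. With edgeR's quasi-likelihood test and Benjamini-Hochberg adjustment over 13701 genes, 28 of 41 genes rose and 0 fell, which is 68.3%, beside 11.5% of all genes tested that rose. The median log2 difference was 2.07 for the listed genes and -0.05 for all genes. It was 2.40 over 24 mitosis genes, 21 of which rose, and 1.09 over 17 replication genes, 7 of which rose. Tyms, which makes thymidylate, rose by 1.47 ± 0.18 on the log2 scale (± SE, adjusted p = 0.0074), Rrm2 by 2.70 ± 0.39 (adjusted p = 0.00917), and Birc5 by 3.28 ± 0.50 (adjusted p = 0.01). Cenpe, a kinetochore motor, rose by 1.98 ± 0.30 (adjusted p = 0.01), and the checkpoint kinase Bub1 rose by 2.89 ± 0.47 (adjusted p = 0.0113). The mitotic kinases Aurka and Plk1 rose by 2.14 ± 0.34 (adjusted p = 0.0108) and 2.81 ± 0.50 (adjusted p = 0.0134), and the checkpoint kinase Bub1b by 2.26 ± 0.40 (adjusted p = 0.0136). Mki67 rose by 2.21 ± 0.55 (adjusted p = 0.033). Mcm5 at 1.15 ± 0.34 (adjusted p = 0.0521), Top2a, the topoisomerase that untangles sister chromatids, at 2.46 ± 0.80 (adjusted p = 0.0691), and Pcna at 0.56 ± 0.40 (adjusted p = 0.345) did not pass. DESeq2 called 35. Without sham 2 the count was 1, and without either day 1 sample, which leaves day 1 with a single sample assumed to vary like the others, it was 0.

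The wider cycle program of BEC-like cells was read from lists of genes outside the 43. On day 1 against sham, 82 of 121 tested further mitosis genes and 25 of 50 further replication genes rose, and 0 of either list fell, beside 11.5% of all genes that rose and 7.12% that fell. The spindle checkpoint gene Mad2l1 rose by 2.16 ± 0.22 on the log2 scale (adjusted p = 0.00549), and the histone chaperone Asf1b rose by 2.64 ± 0.31 (adjusted p = 0.00668). Of 12 other cycle transcription factors and p53 genes 3 rose, with a median of 0.13 over the list, and 2 of 12 genes of the RB and E2F family rose. Among the 3, Mybl2 rose by 2.21 ± 0.44 (adjusted p = 0.0176) and Foxm1 by 1.43 ± 0.35 (adjusted p = 0.0317). Among the 7 G1 cyclins and kinases, 1 rose and 1 fell, which is close to the shares of all genes. Cyclin D3 (Ccnd3) rose by 1.18 ± 0.15 (adjusted p = 0.00755), and cyclin D2 (Ccnd2) fell by 0.87 ± 0.24 (adjusted p = 0.0427). Of 7 tested CDK inhibitors, Cdkn3 and Cdkn2c rose, by 2.96 ± 0.73 (adjusted p = 0.0327) and 0.88 ± 0.24 (adjusted p = 0.0426). Cdkn3 is a phosphatase whose own transcript peaks in dividing cells.

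The BEC-like cells of the groups came mostly from different clusters. The cells of sham 2 and sham 3 were mainly in cluster 1, led by Scgb1c1 and Ttr, day 1 cells in cluster 0, led by Reg3b and Reg3g, and day 7 cells in cluster 3, led by Gkn3 and Mmp7. In sham 1 and ctrl day 3 the largest was cluster 2, led by Lypd8 and Wfdc21. Within cluster 1, the share of cycling cells was 0.855%, 5.08% and 6.69% in sham and 15.8% (38 cells) and 25.6% (168 cells) on day 1. Within cluster 3 it was 0.0%, 5.36% and 7.41% in sham and 29.1% and 28.2% on day 1. Within cluster 0 the groups overlapped. It was 2.94%, 28.0% and 43.8% in sham, from 25 to 34 cells each, and 34.0% and 49.3% on day 1. Cluster 2, rich in Duox2, was close to the neutrophil level in all 9 samples, from 0.0% to 2.07%, with 0.784% and 0.945% on day 1. These values describe the clusters, and no test between clusters was made. The clusters were not independent of the cycle, since Cdc20 was among the leading genes of cluster 0.

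Free RNA was measured in barcodes with 100 UMIs or fewer. There the summed level of the mitosis genes was 216, 685 and 517 CPM in sham, 820, 566 and 661 CPM in ctrl and 691, 764 and 786 CPM in treat. Hmgb2 alone gave 80.2, 265 and 216 CPM of the sums in sham. In BEC-like cells the summed level of the mitosis genes was 229, 566 and 793 CPM in sham. This sum was above the near-empty value of its own sample in sham 1 and sham 3, and below it in sham 2. It was 1693 and 2181 CPM on day 1, above every value in near-empty barcodes, and 694 to 850 CPM on days 3 and 7. A cut at 6000 genes per barcode removed 790 barcodes that failed no other filter, of which 43.04% met the definition of a cycling cell. In the day 1 samples 47.5% and 54.6% did, so the day 1 shares exclude barcodes rich in cycle transcripts. These barcodes were given no cell type and no doublet score, and whether they were single cells was not examined.

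Between day 1 and day 7, 18 of 41 genes tested in BEC-like cells fell and 0 rose, which is 43.9%, against 9.3% of all 13701 genes that fell. All 41 estimates were below 0, with a median of -1.57, while the median of all genes was 0.02. Tyms fell by 1.69 ± 0.20 on the log2 scale (edgeR, adjusted p = 0.00855), Cdc6, which licenses origins, fell by 1.20 ± 0.23 (adjusted p = 0.0185), and Gins2, part of the replicative helicase, fell by 1.51 ± 0.30 (adjusted p = 0.0205). Aurka fell by 1.82 ± 0.37 (adjusted p = 0.0219), Rrm2 by 1.90 ± 0.42 (adjusted p = 0.0265) and Birc5 by 2.30 ± 0.55 (adjusted p = 0.033). Cdc45 and Rrm1 fell by 1.69 ± 0.39 (adjusted p = 0.0304) and 1.23 ± 0.29 (adjusted p = 0.0321). Mcm5 at -1.12 ± 0.37 (adjusted p = 0.077), Mki67 at -1.43 ± 0.61 (adjusted p = 0.147), Top2a at -2.02 ± 0.89 (adjusted p = 0.157) and Pcna at -0.62 ± 0.44 (adjusted p = 0.363) did not pass. Of the wider lists, 57 of 121 further mitosis genes and 23 of 50 further replication genes fell. The number of listed genes called was 38 without sham 1, 2 without sham 2, 11 without ctrl day 3 and 10 without treat day 3. It was 0 without any 1 of the 4 samples of days 1 and 7.

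T-like cells had 2.15% (ctrl) and 3.38% (treat) of cells in the cycling class on day 1, 17.7% (14.3% to 21.5%) and 17.0% (15.5% to 18.6%) on day 3, and 10.98% and 11.3% on day 7. NK-like cells had 4.92% and 5.32% on day 1 and 13.1% and 15.3% on day 7. On day 3 they had 21.4% (11.6% to 34.4%, 12 of 56 cells) and 29.0% (21.4% to 37.6%, 38 of 131 cells). The interval of ctrl day 3 includes the 13.1% of ctrl day 7. In both types and both arms, day 3 was the highest of the 3 days, and day 3 was 6.27 times day 1 in T-like and 4.93 times day 1 in NK-like cells. In T-like cells this ratio ran from 3.46 when cells were thinned to 3000 UMIs to 10.3 without Tacc3, Aurka and Kif23, and in NK-like cells it was 2.66 at 3000 UMIs. Without library 1, ctrl day 1 had 1 of 85 T-like cells and 0 of 47 NK-like cells in the class. For NK-like cells ctrl day 1 was 7.79% without library 3, ctrl day 3 was 4 of 9 cells (44.4%) without library 1 and treat day 1 was 3.38% without library 1. The sham values rest on few cells. T-like cells of sham 1, sham 2 and sham 3 had 0 of 78, 2 of 47 and 11 of 29 cells in the class, where 0 of 78, read as 3 counts of 78, allows a share of up to 3.85%. Library 2 of treat day 7 had 35.2% of its T-like cells in the class, against 9.95% and 7.52% in the other libraries of that sample.

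**Figure D3:**
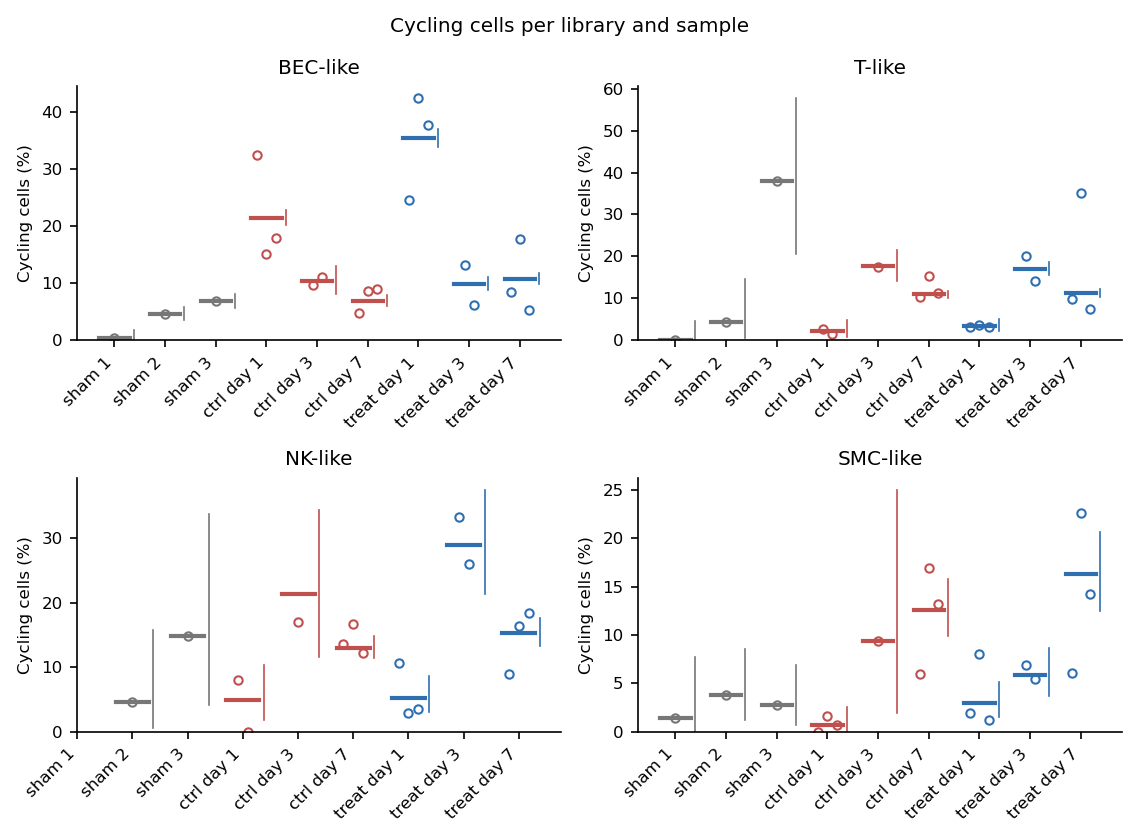
Percent of cycling cells in BEC-like, T-like, NK-like and SMC-like cells, by sample (x axis). Circles are libraries with at least 20 cells, horizontal bars are samples, and thin vertical lines are exact 95% intervals for counting error. BEC-like cells peak on day 1, T-like and NK-like cells of both transplanted arms on day 3, and SMC-like cells of both arms on day 7, when library 2 is the highest circle.

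From day 1 to day 7, 5 of 40 tested genes rose in T-like cells and 0 fell, which is 12.5%, against 1.73% of all genes that rose, and all 40 estimates were above 0. Cdk1, the mitotic kinase, rose by 1.84 ± 0.37 on the log2 scale (adjusted p = 0.00552), and Nusap1, a spindle protein, by 2.15 ± 0.49 (adjusted p = 0.0158). Kif11, Cenpf and Rrm2 rose by 1.77 ± 0.41 (adjusted p = 0.0195), 2.27 ± 0.55 (adjusted p = 0.0249) and 1.65 ± 0.42 (adjusted p = 0.0295), but Rrm2 turned to -0.19 with doublets kept (edgeR, adjusted p = 1.0). The estimates of Mki67, Top2a, Mcm5 and Pcna were 1.59 ± 0.54, 1.98 ± 0.57, 1.23 ± 0.35 and 0.63 ± 0.30, and none passed (adjusted p = 0.128, 0.0606, 0.0646 and 0.387). With doublets kept, 0 genes were called, and the count was 23 without ctrl day 3 or treat day 3, 15 without sham 1, 14 without sham 3, 8 without ctrl day 7 and 4 to 7 without any other sample. DESeq2 called 3. Outside the list, 8 of 109 further mitosis genes and 2 of 47 further replication genes rose. The securin gene Pttg1 rose by 1.70 ± 0.37 (adjusted p = 0.0108) and thymidine kinase Tk1 by 1.70 ± 0.46 (adjusted p = 0.0453). Cluster 23, led by Gzma and Nkg7, held 3 and 6 of the 233 and 710 T-like cells of day 1, but 1518 of 5381 in ctrl day 7 and 1700 of 5169 in treat day 7. Its cycling share on day 7 was 23.1% and 20%, against 6.21% and 7.03% in cluster 19, which held the rest. On day 3 the share in cluster 23 was 60% in ctrl (21 of 35 cells) and 55.8% in treat (208 of 373 cells). Cluster 19 then had 14.1% and 9.78%. In NK-like cells 0 of 31 genes passed between day 1 and day 7 by edgeR or DESeq2, with 5 at an unadjusted p under 0.05, and 0.392% of all genes rose. Mki67, Top2a, Pcna and Mcm5 differed there by 0.54 ± 0.30, 0.54 ± 0.42, 0.52 ± 0.39 and 1.20 ± 0.42.

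The cycling share of SMC-like cells was 1.43%, 3.76% and 2.76% in sham, 0.73% and 2.96% on day 1, 9.38% (3 of 32 cells) and 5.84% on day 3, and 12.6% (9.91% to 15.7%) and 16.3% (12.5% to 20.6%) on day 7. Library 2 was the highest of day 7 in both arms, with 17.0% in ctrl and 22.6% in treat, against 5.98% and 13.2%, and 6.09% and 14.3%, in libraries 1 and 3. Without it the shares were 8.08% (21 of 260 cells), below ctrl day 3, and 7.69% (11 of 143 cells). The mean of day 7 was 7.84 times that of day 1. This ratio was 2.73 without thinning (8.19% and 13.9% on day 1, 26.3% and 33.8% on day 7), 4.96 at 3000 UMIs, 4.81 with doublets kept and 1.96 with a definition by at least 3 replication genes, and it was 12.6 at 1000 UMIs and 14.3 with at least 3 mitosis genes. In ctrl, day 3 was above day 7 with replication genes (2 of 32 cells, 6.25%, against 3.39%) and with doublets kept (10 of 64 cells, 15.6%, against 12.3%). Treat day 1 was 1.31% without library 2 and 5.96% without library 3, and ctrl day 1 was 0.474% without library 2. Between day 1 and day 7, 11 of 40 genes rose and 0 fell, which is 27.5%, against 1.23% of all genes that rose, and all 11 were mitosis genes. Tpx2, a spindle assembly factor, rose by 2.93 ± 0.42 on the log2 scale (adjusted p = 0.0137), Plk1 by 3.39 ± 0.50 (adjusted p = 0.0155) and Cdc20 by 2.57 ± 0.45 (adjusted p = 0.031). Bub1, Nusap1, Cenpe, Cenpf and Ccnb1 (cyclin B) rose by 2.76 ± 0.50 (adjusted p = 0.0336), 2.84 ± 0.52 (adjusted p = 0.0353), 2.90 ± 0.56 (adjusted p = 0.0405), 4.38 ± 0.85 (adjusted p = 0.0406) and 3.01 ± 0.60 (adjusted p = 0.0458). Top2a also rose, by 3.21 ± 0.66 (adjusted p = 0.0481), from 3.07 and 14.3 CPM on day 1 to 101 and 64.3 CPM on day 7. Mki67 was at 2.23 ± 0.62 (adjusted p = 0.116), Mcm5 at 0.33 ± 0.48 (adjusted p = 0.799) and Pcna at 0.08 ± 0.32 (adjusted p = 0.936). The median was 2.74 for mitosis genes and 0.33 for replication genes, against 0.01 for all genes. Of 6 CDK inhibitors 2 rose. Cdkn2a, which encodes p16 and p19Arf, rose by 3.98 ± 0.71 (adjusted p = 0.0318), from 0.341 and 0.528 CPM on day 1 to 7.86 and 8.40 CPM on day 7, and Cdkn3 by 3.45 ± 0.61 (adjusted p = 0.0312). Cdkn2a was at 0, 1.56 and 2.48 CPM in sham, and its day 1 levels rest on very few UMIs. The count was 21 without sham 1, 5 without sham 3, 2 without sham 2, ctrl day 3 or treat day 3, and 0 without any 1 of the samples of days 1 and 7.

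The cycling share of fibroblast-like cells was 8.28% and 4.38% in sham 2 and sham 3 and 1.68% to 7.41% in the transplanted samples, which overlap. It was 7.41% and 4.81% on day 1, 7.37% and 1.68% on day 3 and 5.25% and 4.30% on day 7. Without thinning the shares were 2.38%, 15.6% and 6.96% in sham, 36.1% and 19.7% on day 1, 24.7% and 5.64% on day 3 and 13.4% and 9.61% on day 7, and the median depth also differed between these samples. Single libraries moved these values. Treat day 1 had 18%, 4.59% and 0.531% in its libraries, and was 2.24% without library 1 and 8.83% without library 3. Ctrl day 3 was 26.5% (13 of 49 cells) without library 1, and treat day 3 was 0.56% without library 2 and 3.14% without library 3. Ctrl day 7 was 10.6% without library 1 and 2.18% without library 2, and treat day 7 was 2.04% without library 2. In sham 1, 0 of 82 cells were in the class, which, read as 3 counts of 82, allows a share of up to 3.66%. With a definition by at least 3 replication genes the shares were 0%, 2.07% and 1.52% in sham and 5.72% and 6.19% on day 1. They were then 2.70% and 0.632% on day 3 and 1.13% and 1.36% on day 7, so both day 1 samples were above all others. From day 1 to day 7, 14 of 41 genes fell and 0 rose, which is 34.1%, against 14.4% of all genes that fell, and all 14 were replication genes. Mcm7 fell by 2.13 ± 0.18 on the log2 scale (adjusted p = 0.00117), from 70.7 and 54.2 CPM on day 1 to 18.9 and 14.3 CPM on day 7, which is near the 20.6 to 23.3 CPM of sham. Gins2 fell by 1.85 ± 0.23 (adjusted p = 0.00166), Chaf1b, a chromatin assembly factor, by 3.03 ± 0.44 (adjusted p = 0.00251) and cyclin E1 (Ccne1) by 2.15 ± 0.33 (adjusted p = 0.0032). Cdc6, Mcm3, Mcm5, Mcm6 and Mcm2 fell by 2.29 ± 0.36 (adjusted p = 0.00358), 2.19 ± 0.35 (adjusted p = 0.00364), 2.78 ± 0.47 (adjusted p = 0.00446), 2.19 ± 0.45 (adjusted p = 0.009) and 1.45 ± 0.30 (adjusted p = 0.00946). Mki67, Top2a and Pcna were at -0.31 ± 0.65, -0.31 ± 0.89 and -0.42 ± 0.22, with adjusted p of 0.752, 0.829 and 0.177 by edgeR. Of the further lists, 35 of 49 replication genes and 14 of 112 mitosis genes fell, the latter a smaller share than the 14.4% of all genes. Of 7 tested CDK inhibitors 2 rose and 0 fell, and the share of all genes that rose is not given here. Cdkn1c rose by 3.47 ± 0.43 (adjusted p = 0.00166), from 8.96 and 14.2 CPM on day 1 to 170 and 125 CPM on day 7. Cdkn1b rose by 0.97 ± 0.23 (adjusted p = 0.0153). The count was 2 without ctrl day 7 and 7 without treat day 1. Most day 1 cells lay in cluster 27, marked by Ptx3, most sham cells in clusters 13 and 14 and most later cells in cluster 14. The median depth was 23627 and 12716 UMIs per cell on day 1, 16505 and 8518 on day 3, 9610 and 9150 on day 7 and 5704 to 6778 in sham. The part of cluster makeup and depth in these falls was not tested.

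**Figure D4:**
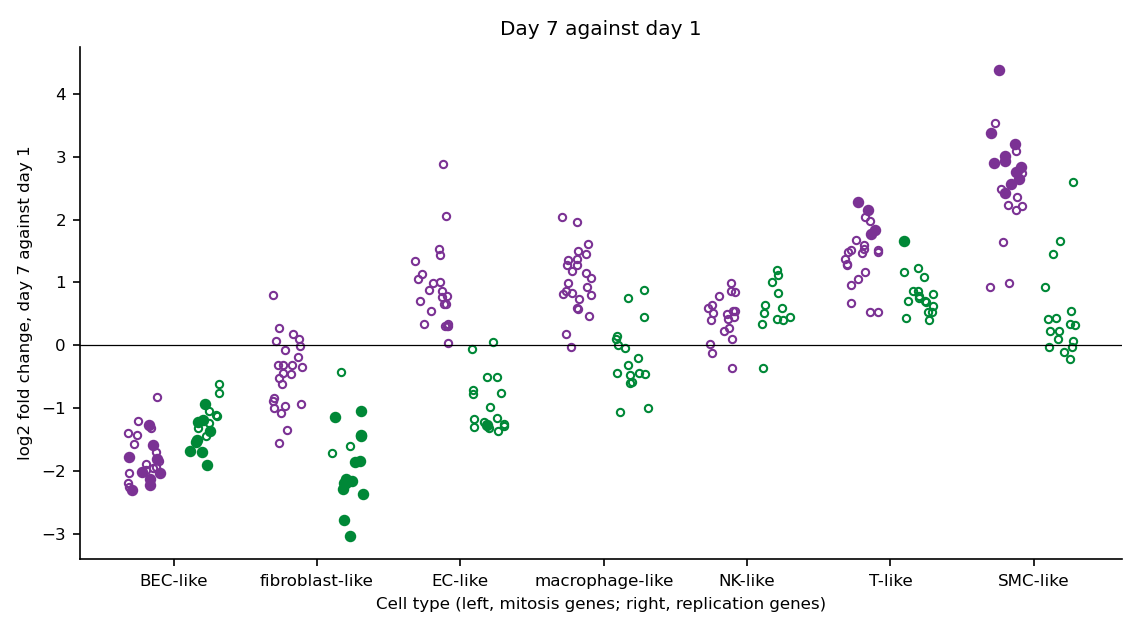
Log2 fold change of each tested gene between day 1 and day 7 (y axis), by cell type (x axis), with mitosis genes on the left in purple and replication genes on the right in green. Filled points passed an adjusted p of 0.05 (edgeR); these lie below 0 for both roles in BEC-like cells, below 0 for replication genes only in fibroblast-like cells, and above 0 for mitosis genes in SMC-like cells.

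The levels of the 2 roles were also summed, leaving out Hmgb2 and Pcna, which were detected in 28.3% and 29.7% of non-cycling cells. On day 1 in ctrl and treat, the replication sum exceeded the mitosis sum in fibroblast-like cells (485 and 420 CPM against 266 and 357 CPM), EC-like cells (346 and 469 CPM against 195 and 302 CPM) and SMC-like cells (144 and 319 CPM against 60.7 and 183 CPM). In BEC-like cells the order was the opposite, with 383 and 515 CPM for replication against 1074 and 1414 CPM for mitosis. By day 7 the mitosis sum was the higher of the 2 in each of these types. Sham 1, where few or none of these cells were cycling, also had the higher replication sum in each of these types, BEC-like cells included. Sham 2 and sham 3 had the higher mitosis sum in each, if barely so in BEC-like cells of sham 2 (270 against 268 CPM). The replication sum of SMC-like cells was 113, 290 and 165 CPM in sham, which spans ctrl day 1 but not treat day 1. That of EC-like and fibroblast-like cells was at most 293 and 222 CPM in sham, below both day 1 samples. In EC-like cells, 12 of 17 replication genes were lower in both day 7 samples than in both day 1 samples, and 19 of 24 mitosis genes were higher. Of all 10147 genes tested there, 24.7% were lower and 31.3% higher in this way. Of the listed genes, only Mcm7 passed the test, with a fall of 1.27 ± 0.27 on the log2 scale (adjusted p = 0.0384), which is 1 of 40 genes tested, beside 1.86% of all genes that fell. It passed only with all 9 samples or without sham 1, when 10 genes did. Mki67, Top2a, Mcm5 and Pcna were at 0.86 ± 0.83, 1.13 ± 0.90, -1.30 ± 0.61 and -0.78 ± 0.31 in EC-like cells, none past the test.

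**Figure D5:**
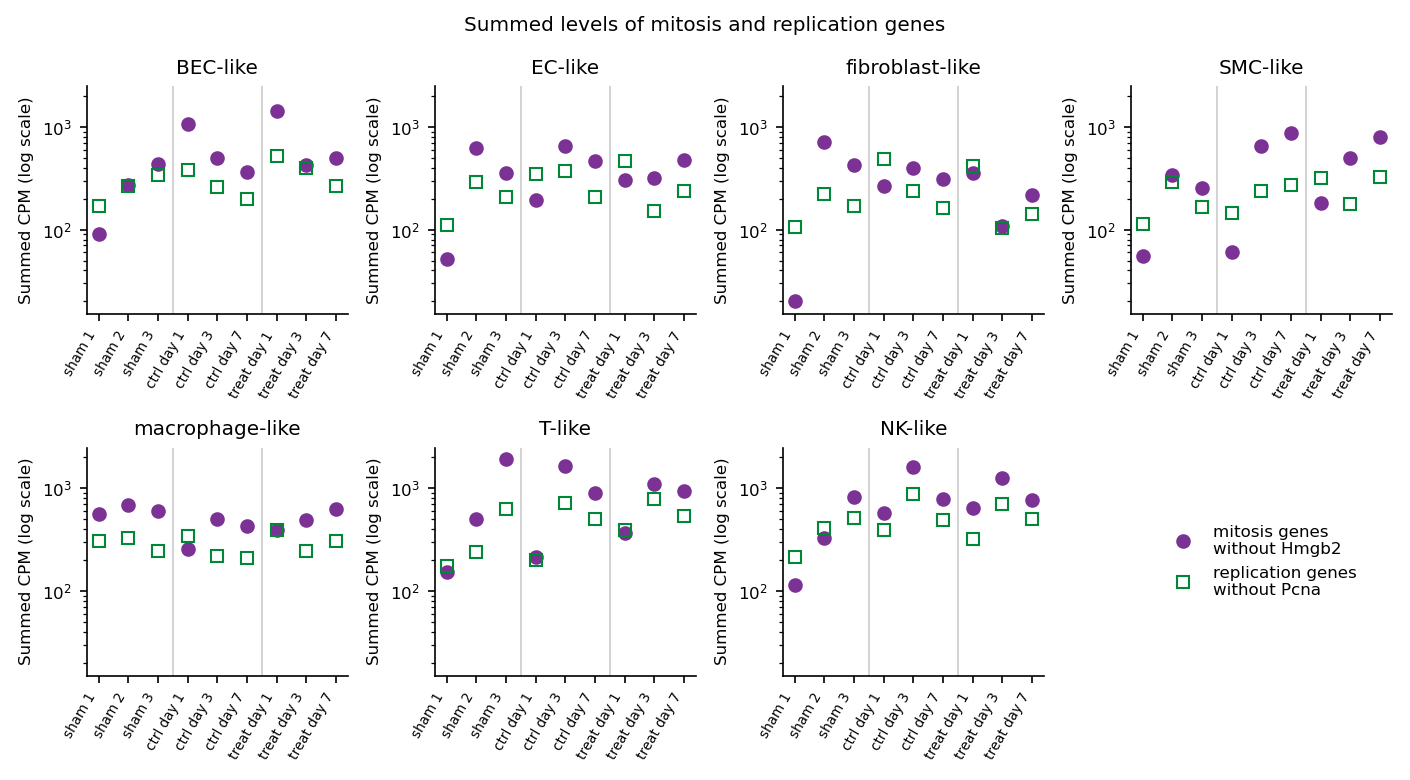
Summed CPM (y axis, log scale) of the mitosis genes without Hmgb2 (purple circles) and of the replication genes without Pcna (green squares) in 7 cell types, by sample (x axis). On day 1 the circles lie far above the squares in BEC-like cells (1074 and 1414 against 383 and 515 CPM) and below them in fibroblast-like, EC-like and SMC-like cells.

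Macrophage-like cells had 11.3%, 9.60% and 9.51% of cells in the cycling class in sham, 5.48% and 6.29% on day 1, and 9.23% to 14.8% on days 3 and 7. Too shallow to be thinned were 274 of 389 cells in sham 1 and 472 of 764 in ctrl day 1. In sham 2, sham 3 and treat day 1 it was 136 of 1449, 146 of 1229 and 338 of 1101. The ratio of day 1 to sham was 0.581, but it was 0.923 without thinning and turned to 1.69 when cells were defined by at least 3 replication genes. Treat day 1 was 3.78% without library 2 and 9.80% without library 3, which is within the range of sham, ctrl day 3 was 20.8% (10 of 48 cells) without library 1, and treat day 3 was 5.44% without library 2. The mean of the transplanted samples against sham gave 4 of 41 genes that fell and 0 that rose, which is 9.76%, against 5.62% of all genes that fell. Nusap1 fell by 1.21 ± 0.18 on the log2 scale (adjusted p = 0.0128), Kif23, needed for cytokinesis, by 1.44 ± 0.28 (adjusted p = 0.0243), Top2a by 0.89 ± 0.21 (adjusted p = 0.0388) and Kif11 by 1.04 ± 0.26 (adjusted p = 0.0442). Mki67 at -0.56 ± 0.33, Pcna at -0.60 ± 0.26 and Mcm5 at 0.06 ± 0.28 did not pass (adjusted p = 0.271, 0.153 and 0.904). The count was 10 without sham 1, 1 without ctrl day 1, ctrl day 3 or treat day 3, and 0 without any of the other 5 samples. With days treated as replicates and no day term it was 1. Macrophage-like cells of sham 2 and sham 3 lay mostly in cluster 17, led by Pf4 and Clec10a, those of sham 1 and ctrl day 1 in the shallow cluster 6, and those of the other samples in cluster 7. Among cells deep enough to be thinned, cluster 7 held more than cluster 6 in sham 1 (69 against 45) and ctrl day 1 (158 against 129). Between days 1 and 7, 0 of 41 genes passed by edgeR and 5 rose by DESeq2, with 18 at an unadjusted p under 0.05, and 0.00946% of all genes rose. Without sham 1, 8 genes passed. Mki67, Top2a, Pcna and Mcm5 were at 1.37 ± 0.48, 0.93 ± 0.31, 0.89 ± 0.38 and -0.31 ± 0.38.

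Averaged over the 3 days and both arms, 6 of 41 genes rose against sham in BEC-like cells and 0 fell, which is 14.6%, against 5.66% of all genes that rose. These were Cenpe at 1.27 ± 0.25 (adjusted p = 0.0258), Birc5 at 1.92 ± 0.42 (adjusted p = 0.0315), Rrm2 at 1.47 ± 0.34 (adjusted p = 0.0359), Bub1 at 1.67 ± 0.40 (adjusted p = 0.0407), the centromere histone Cenpa at 1.99 ± 0.51 (adjusted p = 0.0472) and Ccnb1 at 1.74 ± 0.45 (adjusted p = 0.0491) on the log2 scale. Mki67, Top2a, Pcna and Mcm5 were at 1.32 ± 0.46, 1.20 ± 0.66, 0.20 ± 0.32 and 0.65 ± 0.28, none past the test. The count was 18 without sham 1, 1 without treat day 3, and 0 without any of the other 7 samples or without the day term. In all cells together 8 of 41 rose, against 9.18% of all genes. They were Rrm2, Tacc3, Aurka, Cdc45, Chaf1b, Mcm3, Hmgb2 and Mcm7, with estimates from 0.68 ± 0.17 (Mcm7, adjusted p = 0.0446) to 1.88 ± 0.35 (Rrm2, adjusted p = 0.0224). Mki67, Top2a, Pcna and Mcm5 were at 0.91 ± 0.45, 0.50 ± 0.61, 0.58 ± 0.24 and 1.08 ± 0.37 there, none past the test. Summed cells mix the levels within a type with the share of each type, and neutrophil-like cells, in which Tacc3 is detected in 11.5% of non-cycling cells, were 0.108% to 3.17% of the cells of sham samples and 3.73% to 32.1% of those of transplanted samples. The part of these shares in the all-cell differences was not tested. That count was 15 without sham 1, 4 without ctrl day 1, 5 without treat day 1 and 0 without any of the other 6.

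In fibroblast-like cells Mcm7 alone rose against sham, by 0.51 ± 0.14 (adjusted p = 0.0387), 1 of 41 genes against 7.56% of all genes, a share below that of all genes. It was 8 genes without sham 1 and 0 without sham 2, sham 3, ctrl day 1, ctrl day 3, ctrl day 7 or treat day 7, and 0 without the day term. There Mki67, Top2a, Pcna and Mcm5 were at -0.58 ± 0.46, -0.87 ± 0.61, 0.14 ± 0.16 and 0.55 ± 0.35, none past the test. In EC-like, SMC-like, T-like and NK-like cells 0 of 40, 40, 40 and 31 genes passed by edgeR, with 2, 3, 9 and 10 at an unadjusted p under 0.05, beside 0.926%, 0.2%, 0.545% and 0.224% of all genes that rose. DESeq2 called 0, 0, 0 and 1. With 1 sample left out the highest counts were 2, 0, 2 and 4: 2 in EC-like cells without sham 1, 2 in T-like cells without sham 3, ctrl day 1, ctrl day 3, treat day 3 or treat day 7, and 4 in NK-like cells without ctrl day 3. Mki67 was at 0.26 ± 0.65, 0.64 ± 0.53, 0.24 ± 0.54 and 1.64 ± 0.43 in these types, Top2a at -0.03 ± 0.67, 0.60 ± 0.51, -0.05 ± 0.52 and 0.68 ± 0.48, Pcna at -0.62 ± 0.22, -0.38 ± 0.23, -0.14 ± 0.23 and -0.25 ± 0.30, and Mcm5 at 0.54 ± 0.52, 0.41 ± 0.52, 2.14 ± 0.62 and 1.22 ± 0.72. In all cells together, 0 of 41 genes passed between days 1 and 7 by edgeR, with 3 at an unadjusted p under 0.05, and 2 fell by DESeq2, beside 2.39% of all genes that rose and 0.658% that fell. Of the 41 estimates, 31 were below 0. Without sham 1, 5 passed. There Mki67, Top2a, Pcna and Mcm5 were at 0.13 ± 0.60, 0.06 ± 0.84, 0.61 ± 0.33 and -0.30 ± 0.49.

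The last comparison asked whether raised arterial flow changed the cell cycle genes. No listed gene passed by edgeR in all cells or in any of the 7 cell types, and the percent of all genes called was 0.0% in all cells and in BEC-like, EC-like, SMC-like, macrophage-like and NK-like cells, 0.0249% in fibroblast-like and 0.0327% in T-like cells. At an unadjusted p under 0.05 there were 0 listed genes in all cells, 3 in BEC-like, 0 in EC-like, 7 in fibroblast-like, 2 in SMC-like, 4 in macrophage-like, 0 in T-like and 0 in NK-like cells. DESeq2 called 1, lower, in fibroblast-like cells and 0 elsewhere. In BEC-like cells Mki67 was at 0.35 ± 0.50, Top2a at 0.50 ± 0.72, Pcna at 0.65 ± 0.37 and Mcm5 at 0.51 ± 0.30, treat against ctrl on the log2 scale. The spread between samples therefore leaves room for differences of either sign. In these cells 26 of 41 genes were higher in treat at each of the 3 days, 15 of them replication genes, and 1, Cdc6, was lower at each, beside 27.9% and 13.7% of all genes. The median was 0.35, against 0.05 for all genes. In fibroblast-like cells 40 of 41 estimates were below 0, with a median of -0.58, against -0.01 for all genes, and Gins2 had the smallest p, at -0.91 ± 0.19 (adjusted p = 0.23). Mki67, Top2a, Pcna and Mcm5 were at -0.20 ± 0.55, -0.55 ± 0.78, 0.19 ± 0.18 and -0.83 ± 0.38 there. In all cells and the other 5 types, Mki67 lay between -0.19 ± 0.24 (NK-like) and 0.47 ± 0.40 (macrophage-like), Top2a between -0.03 ± 0.44 (T-like) and 0.64 ± 0.26 (macrophage-like), Pcna between 0.14 ± 0.32 (NK-like) and 0.46 ± 0.26 (SMC-like) and Mcm5 between -0.23 ± 0.52 (EC-like) and 0.76 ± 0.45 (SMC-like). On day 1 the cycling share of BEC-like cells was 32.6%, 15.1% and 17.9% in the ctrl libraries and 24.6%, 42.5% and 37.8% in the treat libraries, so the libraries of the arms overlapped.

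Several types were described only, because some samples held fewer than 20 of their cells. Plasma-like cells, present in number only on day 7, had 15.8% of 202 cells (ctrl) and 28.1% of 334 cells (treat) in the cycling class. Library 1 held 93 of the 94 cycling cells in treat and 26 of 32 in ctrl, and without it the shares were 7.14% of 14 cells and 7.41% of 81 cells. LEC-like cells had 20 of 98 cells (20.4%) in ctrl day 7, 18 of them in library 2, without which it was 3.39% of 59 cells. At 1500 UMIs, monocyte-like cells were at 2.26% or less in each sample, and without thinning at 5.67% to 15.9%.

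The 41 genes differed in how often they were detected together with other mitosis genes. For each gene, cells were called cycling on the other mitosis genes, and the percent of cells in which the gene was detected at 1500 UMIs was compared inside and outside that class. Cells short of 2 mitosis genes count as outside it, even if they hold replication genes. Such cells with at least 2 replication genes other than Pcna were 11.1% and 7.77% of fibroblast-like cells on day 1. The ratios of replication genes therefore do not measure how closely these genes track division. Top2a was detected in 27.7% of cycling and 0.808% of other cells, a ratio of 34.2, and Nusap1, Kif20b and Plk1 had ratios of 35.5 to 37.0. These ratios pool cells of all samples and types. Within single samples they ran from 23.6 to 57.1 for Top2a, 24.1 to 107 for Nusap1, 18.3 to 102 for Kif20b and 0 to 48.2 for Plk1, so these 4 genes cannot be ranked. Mki67 had a ratio of 19.1 (6.85 to 33.4) and Cdk1 of 12.3 (2.82 to 22.7). Among replication genes the pooled ratio was 15.3 for Rrm2 (7.32 to 66.5 in the 8 samples that gave one), 8.94 for Uhrf1, a factor that maintains DNA methylation (4.90 to 53.1), and 2.29 to 3.99 for the 6 measured MCM genes. Pcna was detected in 35.3% of cycling and 29.7% of other cells, a ratio of 1.19 (0.846 to 1.27). Hmgb2 was detected in 28.3% of other cells and had a ratio of 2.85 (2.42 to 3.78).

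Kif23, Tacc3 and Aurka had pooled ratios of 6.08 (0 to 10.5), 3.81 (1.95 to 17.3) and 3.13 (2.28 to 5.55), and the ranges over samples overlap those of other mitosis genes. Tacc3, a spindle protein, was detected in 11.5% of non-cycling neutrophil-like, 4.60% of T-like, 4.54% of macrophage-like and 0.680% of BEC-like cells. Aurka was detected in 3.77%, 3.90%, 2.39% and 0.728% of these. Kif23 was detected in 5.19% of non-cycling BEC-like cells and 0.275% of neutrophil-like cells, and in sham 1, where Top2a was at 0.905 CPM in BEC-like cells, Kif23 was at 43.2 CPM. When these 3 genes were left out of the definition, a choice made after seeing these values, the neutrophil level in transplanted samples was 0.0815% to 1.23%, and BEC-like cells of day 1 were at 20.1% and 33.6%. Reads of genes with near-identical copies could not be told apart in these counts, and this was not examined for the listed genes.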

How the data were processed

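Raw UMI counts per gene and barcode were used as deposited. The authors made these counts from 10x 3' libraries with Cell Ranger, and the submitters' processing notes name Cell Ranger 5.0.1 and Seurat 3.2.0; the build behind the counts is not given in the sources used here. A barcode counted as a cell if over 400 but below 6000 genes were detected and if mitochondrial and hemoglobin transcripts made up less than 25% and 3% of its UMIs; cells above the 92.5th percentile of each library in their share of simulated doublets among nearest neighbors were removed. Clustering (scanpy 1.11.5, Leiden resolution 0.9, 2000 variable genes, 30 components, 15 neighbors) left out 251 cell cycle genes.

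Counts were summed per sample and cell type, libraries of a sample together, and fitted with edgeR 4.0.16 (quasi-likelihood, TMM, Benjamini-Hochberg over all genes tested) with time (sham, day 1, 3 or 7) and arm as terms. DESeq2 1.42.0 was an alternative. A gene was called at an adjusted p under 0.05. The time term pairs ctrl and treat by the day in the labels; the correlation of same-day deviations was 0.302 to 0.717 on day 1, -0.051 to 0.36 on day 3 and 0.353 to 0.706 on day 7. On simulated counts for all cells, transplanted against sham, 34 of 99 genes changed by a log2 fold of 1 and 95 of 100 changed by 2 were recovered, with 11 false among 140 calls over 16244 genes. The simulation gave every gene the same dispersion and, apart from the set changes, every sample the same mean levels. It therefore does not give the power for the listed genes.

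The members and lists were chosen with earlier results of these data known. By rule, Mki67, Top2a, Pcna and Mcm5 are named in each comparison, with up to 8 further members past an adjusted p of 0.05 with the smallest p, and up to 2 genes of each further list; genes shown for their levels or specificity were named after their values were seen. Library 1 of treat day 3 was not analysed here.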

Additional observations from a re-analysis of the deposited data

Results flagged for a closer look

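From day 1 to day 7 the cycling share moved down in both arms in BEC-like and fibroblast-like cells and up in both arms in 5 other types. The mean difference over the arms, day 7 minus day 1 in percentage points, was -19.6 in BEC-like, -1.34 in fibroblast-like, 3.3 in EC-like, 12.6 in SMC-like, 6.15 in macrophage-like, 8.38 in T-like and 9.08 in NK-like cells. Each difference from BEC-like cells was not tested, since the share is a score over the listed genes. In EC-like cells the treat arm turned when library 2 of day 7 was left out, from 8.55% to 2.48%, or library 3 of day 1, from 5.62% to 10.1%. The ctrl arm had 3.95% on day 1, or 0.538% without library 1, and 7.62% on day 7, or 4.84% without library 2. Fibroblast-like cells turned in both arms too. Ctrl day 7 was 10.6% without library 1, above 7.41% on day 1, and treat day 1 was 2.24% without library 1, below 4.30% on day 7.

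Barcodes removed for having 6000 genes or more, which enter no comparison, met the definition of a cycling cell in 54.6% of cases in treat day 1 and 47.5% in ctrl day 1.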

How the results depend on the processing

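Counts of called genes depended on single samples and on the test. Against sham, DESeq2 called 17 genes in all cells, 21 in BEC-like, 2 in fibroblast-like and 1 in NK-like cells. Without the filter on low counts the counts were 10 in BEC-like, 1 in EC-like, 0 in fibroblast-like, 2 in SMC-like, 2 in T-like and 4 in NK-like cells. Without the replicate block, which is the day term, they were 0 in BEC-like, 0 in fibroblast-like and 1 in macrophage-like cells. With libraries as samples they were 16 in all cells, 11 in BEC-like, 0 in fibroblast-like and 1 in macrophage-like cells, and scaling by total counts gave 0 in fibroblast-like cells. With doublets kept they were 21 in BEC-like and 2 in macrophage-like cells, and at Leiden resolution 2 they were 3 in BEC-like, 3 in SMC-like and 2 in macrophage-like cells.

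From day 1 to day 7, DESeq2 called 2 genes in all cells, 28 in BEC-like, 18 in SMC-like, 5 in macrophage-like and 3 in T-like cells. Without the filter the counts were 5 in EC-like, 24 in SMC-like, 4 in macrophage-like and 22 in T-like cells. With total counts they were 8 in BEC-like and 0 in EC-like cells. With libraries as samples they were 7 in all cells, 35 in BEC-like, 8 in EC-like, 21 in SMC-like, 9 in macrophage-like, 19 in T-like and 1 in NK-like cells. With doublets kept they were 32 in BEC-like, 0 in EC-like and 0 in T-like cells, and 9 in T-like cells at resolution 2. Rrm2 in T-like cells then stood at -0.19 with doublets kept (edgeR, adjusted p = 1.0). Treat against ctrl gave 1 gene by DESeq2 in fibroblast-like cells.

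The day 1 to sham ratio of the cycling share in BEC-like cells was 2.52 with at least 3 replication genes and 2.66 without thinning. The day 1 to day 7 ratio was 2.81 at 3000 UMIs, 3.47 with 3 mitosis genes, 2.79 with 3 replication genes, 3.06 with doublets, 2.12 without thinning and 3.44 without Tacc3, Aurka and Kif23. In T-like cells the day 3 to day 1 ratio was, in that order, 3.46, 10.2, 4.0, 3.7 with doublets and 10.3 without the 3 genes; in NK-like cells it was 2.66 at 3000 UMIs and 3.81 with replication genes. The macrophage-like ratio of day 1 to sham was 0.756 at 1000 UMIs, 0.426 with 3 mitosis genes, 0.653 with doublets, 0.923 without thinning and 0.476 without the 3 genes, and turned to 1.69 with replication genes. In all cells it was 1.89 at 1000 UMIs, 1.93 with replication genes, 1.9 with doublets, 1.86 without thinning and 1.96 without the 3 genes. Causes of these shifts were not tested.

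With 1 sample left out, counts against sham ran from 0 to 15 in all cells, 0 to 18 in BEC-like, 0 to 2 in EC-like, 0 to 8 in fibroblast-like, 0 to 0 in SMC-like, 0 to 10 in macrophage-like, 0 to 2 in T-like and 0 to 4 in NK-like cells. From day 1 to day 7 they ran from 0 to 5, 0 to 38, 0 to 10, 2 to 16, 0 to 21, 0 to 8, 4 to 23 and 0 to 0 in the same order; treat against ctrl gave 0 throughout, and day 1 against sham 0 to 35 in BEC-like cells. The ratios ran from 4.97 to 11.2 (BEC-like, day 1 to sham), 2.43 to 4.12 (BEC-like, day 1 to day 7), 5.13 to 8.07 (T-like), 4.19 to 5.67 (NK-like), 4.89 to 19.8 (SMC-like), 0.541 to 0.621 (macrophage-like) and 1.55 to 2.63 (all cells). Leaving out libraries 2 and 3 of ctrl day 3, chosen after seeing the data, moved no count by over 1.5 times. Few cells per sample limit NK-like and T-like values in sham.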
